A study of Mus musculus with 3 samples.

Results

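The genes described here are 10 genes of the hypoxia response, namely Hif1a, Epas1, Arnt, Egln1, Egln2, Egln3, Vhl, Vegfa, Bnip3 and Adm, followed through the development of the mouse heart ventricle. They were chosen by name. In the deposited annotation 11 loci carry the name of a member, of which 10 lie on the strand of the gene, and these 10 of 48626 loci, all of them among 20117 mRNA loci, were analysed. The other one is a single-exon transcript on the opposite strand inside Hif1a. All 10 genes reached 1 FPKM (fragment number relative to transcript length and library size) in at least 1 library, as did 12569 mRNA loci in all, and these 12569 loci serve as the background.

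The study sequenced total RNA from the ventricles of C57BL/6 mice (C57BL/6 J in the study's methods) collected at the embryonic stages E10.5 and E13.5 (days of gestation) and from the adult at 8 weeks to find long non-coding RNAs of the developing heart. The labels name no allele, treatment or oxygen manipulation. Xist, the RNA that coats the inactive X chromosome of female cells, had 15.7, 0.144 and 0.0891 FPKM at the 3 stages in that order, so the share of female cells also differed between the libraries and cannot be told apart from stage. Each stage has 1 library, so no value below has a replicate error, no test was possible, and neighbouring levels cannot be judged against a spread. The number of hearts behind a library is not given in the sources used here, and a whole ventricle mixes muscle, vessel, connective tissue and blood cells.

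Hypoxia-inducible factor (HIF) is a transcription factor made of an oxygen-labile alpha subunit, HIF-1α from Hif1a or HIF-2α from Epas1, and the stable partner ARNT. When oxygen is present, prolyl hydroxylases of the EGLN family mark the alpha subunit, and the ubiquitin ligase that contains VHL then sends it to degradation, while in low oxygen the alpha subunit persists and activates genes for blood vessel growth, glycolysis and mitochondrial turnover. In the heart this pathway is known for its part in coronary vessel formation and in the metabolic switch around birth. Since the alpha subunits are controlled mostly as proteins, the RNA levels given here are not a readout of HIF activity.

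Several HIF target genes carry the hypoxia response element, whose core reads ACGTG or GCGTG. The 250 bases before the RefSeq start site are printed for 4 of the 5 genes past the limit used below between the E10.5 and adult libraries, and for Bnip3, a much studied HIF target, so that the core can be seen in its place. The sequences are those of RefSeq on GRCm38.p6, run 5′ to 3′ on the strand of the gene, and have each core on either strand in capitals (CACGT and CACGC are the cores read from the other strand). Epas1 is not among the promoters used. The windows are chr12:73907617-73907866 for Hif1a (plus strand), chr8:124949255-124949504 for Egln1 (minus strand), chr12:54203875-54204124 for Egln3 (minus strand), chr17:46032378-46032627 for Vegfa (minus strand) and chr7:138909507-138909756 for Bnip3 (minus strand).
Hif1a: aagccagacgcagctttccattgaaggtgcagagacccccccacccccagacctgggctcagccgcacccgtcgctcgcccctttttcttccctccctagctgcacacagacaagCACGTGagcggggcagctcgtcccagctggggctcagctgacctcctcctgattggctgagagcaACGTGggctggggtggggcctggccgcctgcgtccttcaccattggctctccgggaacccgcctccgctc
Egln1: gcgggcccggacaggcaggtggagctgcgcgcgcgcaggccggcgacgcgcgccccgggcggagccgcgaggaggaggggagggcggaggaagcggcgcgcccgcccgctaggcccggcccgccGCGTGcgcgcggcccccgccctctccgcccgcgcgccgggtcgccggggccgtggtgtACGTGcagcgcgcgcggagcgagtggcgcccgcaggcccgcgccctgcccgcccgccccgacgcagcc
Egln3: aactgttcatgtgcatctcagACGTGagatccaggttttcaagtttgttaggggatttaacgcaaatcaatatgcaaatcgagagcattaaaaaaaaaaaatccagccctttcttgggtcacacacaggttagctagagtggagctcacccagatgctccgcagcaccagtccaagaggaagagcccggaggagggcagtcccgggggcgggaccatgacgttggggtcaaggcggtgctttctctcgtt
Vegfa: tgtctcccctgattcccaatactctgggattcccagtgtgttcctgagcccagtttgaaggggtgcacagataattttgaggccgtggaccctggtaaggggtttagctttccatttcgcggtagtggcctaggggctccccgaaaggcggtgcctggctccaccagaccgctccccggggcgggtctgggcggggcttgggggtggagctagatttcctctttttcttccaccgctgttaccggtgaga
Bnip3: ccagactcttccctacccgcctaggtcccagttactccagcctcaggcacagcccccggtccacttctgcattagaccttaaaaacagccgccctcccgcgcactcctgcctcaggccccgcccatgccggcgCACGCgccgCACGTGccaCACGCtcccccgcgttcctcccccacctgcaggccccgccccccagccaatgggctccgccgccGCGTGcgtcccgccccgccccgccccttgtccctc

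The Egln1 window holds 2 cores, which begin 126 and 68 bases before the start, and the Egln3 window holds 1 core at 229 bases. In Hif1a the palindrome CACGTG, which reads as a core on both strands, lies 135 bases before the start, with a further core at 70 bases. The Bnip3 window holds 4 sites, of which 1 is the same palindrome at 108 bases. The upstream Vegfa window holds no core, and 81 of its bases fall in a single-exon transcript assembled on the other strand. Of these windows, that of Hif1a lies inside an intron of 1 deposited transcript with an earlier start, while the last 3 bases of that of Bnip3 belong to the first exon of a deposited transcript. Altogether 9 of the 10 genes had 11 windows in the promoter set, and 9 of the 11 windows (8 genes) held a core, against 38.6% of 32851 mouse windows of the same length and 44.0% of those of protein-coding genes. The share of G and C bases ran from 48% (the second Egln2 window) to 86% (Egln1) among the 11 windows. The mouse windows were not matched for it. Matches stood in front of genes that were higher in the adult library and of genes that were lower. A match is a description of the letters and was not tied to binding by any measurement here. Bases outside the windows were not searched, so a window without a core does not mean that the gene lacks the element.

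The 10 genes did not move together. From E10.5 to the adult library, Epas1, Egln1, Egln3 and Vegfa rose and Hif1a fell past the limit used throughout. The limit is a difference of 1 in log2(FPKM + 1), a scale on which genes with low values appear to change less than they do. Thus 4 of 10 genes rose, beside 14.8% of the background loci, and 1 of 10 fell, beside 27.3%. From E13.5 to the adult the same 4 genes rose (background 13%) and Hif1a, Egln2 and Vhl fell (background 32.1%). Between the embryonic libraries no member rose (background 5.89%), and Epas1 was the 1 member that fell (background 4.85%). The 3 comparisons share libraries and are not independent of each other. In bulk RNA, fewer or more cells of a type and less or more RNA per cell cannot be told apart for any of these genes.

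Other limits gave other counts. At a limit of 2, between E10.5 and the adult 1 of 10 genes rose (Epas1, background 5.59%) and none fell (background 8.1%), between E13.5 and the adult 2 rose (Epas1 and Egln3, background 4.41%) and none fell (9.88%), and between the embryonic libraries no gene passed (0.851% and 0.247%). At a limit of 1.5-fold the counts were 5 up and 3 down (21.1% and 42.6%), 5 up and 3 down (19.7% and 47%) and 2 up and 2 down (19.5% and 12.1%) in the same order. Relative to mRNA loci of similar length they were 5 up and 0 down at the limit of 1 (20.8% and 16.7%), 6 up and 2 down (20.6% and 17.2%) and 0 up and 1 down (3.45% and 4.81%). With median-of-ratios scaling, which brings the libraries to a common median, the limit of 1 gave 5 up and 1 down between E10.5 and the adult (20% and 18.4%), 6 up and 1 down between E13.5 and the adult (20.8% and 18.9%) and 0 up and 1 down between the embryonic libraries (4.18% and 6.29%).

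The deposited scale is shifted between libraries, and the changes have to be read against that shift. Over the background loci the median change was 0.17 between the embryonic stages, -0.50 in the step from E13.5 to the adult, and -0.40 over the whole interval. The median over the 10 genes was -0.14, 0.70 and 0.51 in the same order. Measured from the background median between E10.5 and the adult, Epas1 stood at 2.49, Egln3 at 2.14, Egln1 at 2.08, Vegfa at 1.70 and Bnip3 at 1.33, whereas Hif1a stood at -1.01.

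**Figure D1:**
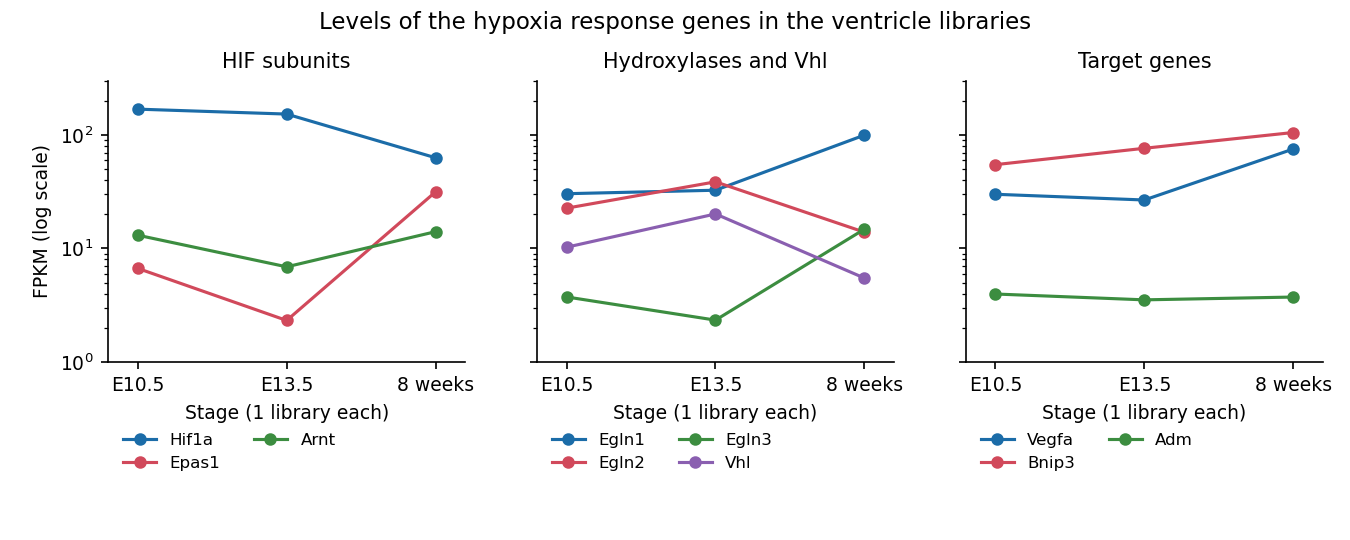
FPKM (log scale) of the 10 genes in the E10.5, E13.5 and 8-week libraries, 1 point a library, joined by lines for each gene and split by role. Hif1a goes from 169 to 63.1 FPKM while Epas1 goes from 6.67 to 31.6, and Adm stays between 3.52 and 3.96.

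Among the HIF subunits, Hif1a, which encodes the alpha subunit found in nearly all cells, was the most abundant of the 10 genes in both embryonic libraries. Its locus (chromosome 12, 73901247 to 73949785, plus strand, 5 deposited transcripts) had 169 FPKM at E10.5, 153 FPKM at E13.5 and 63.1 FPKM in the adult. The adult library was thus the low one, with 0.372 of the E10.5 level and a change of -1.41. This fall lies close to the limit, since it was -1.003 with median-of-ratios scaling, -0.99 with upper quartile scaling and -0.97 against mRNA loci of similar length. At E10.5 Hif1a stood above 98.1% of the background loci and in the adult above 94.3%.

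Epas1 encodes HIF-2α, the alpha subunit best known from endothelial cells. Its locus (chromosome 17, 86753864 to 86833555, plus strand, 3 deposited transcripts with 3 start sites) had 6.67 FPKM at E10.5, 2.32 FPKM at E13.5 and 31.6 FPKM in the adult. The E13.5 library was the lowest and the adult by far the highest, and the ratio of highest to lowest, 13.6, was the widest among the 10 genes. The change from E13.5 to the adult was 3.30, higher than that of 98.8% of the background loci, and between E10.5 and the adult it was 2.09, higher than that of 94.8%. From E10.5 to E13.5 Epas1 fell by 1.21, and only 2.85% of the background loci had a lower value.

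Arnt, the shared partner of the alpha subunits (chromosome 3, 95434390 to 95498473, plus strand), had 13.1 FPKM at E10.5, 6.88 FPKM at E13.5 and 14.1 FPKM in the adult. The outer stages were alike and E13.5 was lower, but neither step passed the limit, with -0.84 into E13.5 and 0.93 out of it. Relative to the background median these steps were -1.01 and 1.44.

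The balance between the subunits can be read within each library, where it does not depend on the scaling between libraries. It can still depend on transcript length, which differs between these genes (7.02 kb for Hif1a, 5.35 kb for Epas1, 4.37 kb for Arnt). Length was linked to the changes that involve E13.5, as described below. The level of Hif1a was 25.4 times that of Epas1 at E10.5, 66.2 times at E13.5 and 1.998 times in the adult. Expressed as a share, Epas1 made up 3.79%, 1.49% and 33.4% of the summed FPKM of both genes. Hif1a over Arnt went from 12.9 at E10.5 through 22.3 at E13.5 to 4.49 in the adult. The remaining alpha gene, Hif3a, whose products include inhibitors of the other alpha subunits, had 12.3 FPKM at E10.5, 3.80 FPKM at E13.5 and 0.241 FPKM in the adult, with a change of -3.42 from E10.5.

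**Figure D2:**
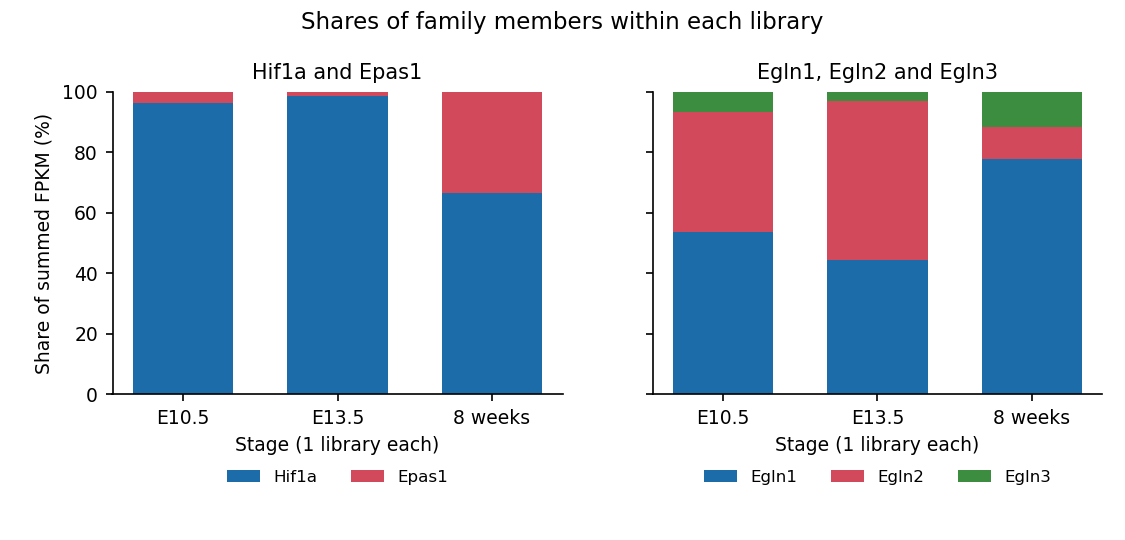
Share of the summed FPKM (%, bars start at 0) taken by Hif1a and Epas1 (left) and by Egln1, Egln2 and Egln3 (right) in each library. Epas1 takes 33.4% in the adult against 3.79% at E10.5, and Egln1 takes 77.7% against 53.5%.

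Epas1 and the VEGF genes are not expressed alike in all cell types, so marker genes of other cells are given beside them. The 8 endothelial markers (such as Pecam1, Cdh5 and Tek) summed to 367 FPKM at E10.5, 303 FPKM at E13.5 and 360.0 FPKM in the adult, and none of the 8 passed 1 in either direction from E10.5 to the adult. Cdh5 and Kdr, 2 of the 8, fell from E10.5 to E13.5 (background 4.85%) and rose from E13.5 to the adult (background 13%), while the other 6 passed 1 in neither step. Kdr is also 1 of the VEGF genes described below. Of 7 smooth muscle and pericyte markers, 3 rose and 1 fell from E10.5 to the adult, their sum being 92.6, 85.3 and 392 FPKM, and Rgs5 alone went from 9.81 to 239.8 FPKM. All 6 macrophage markers rose, with sums of 38.5, 76.6 and 365 FPKM. Of 7 erythroid markers 6 fell, with sums of 7159, 17898 and 155 FPKM, while 1 of 7 fibroblast markers rose and 1 fell, with sums of 270.2, 654 and 519.8 FPKM. The 8 cardiomyocyte markers summed to 15012, 20978 and 22419 FPKM, Myl2 being the highest in every library, and from E10.5 to the adult 3 rose and 3 fell (Nkx2-5 and the loci of Ttn and Myh6). Nkx2-5 went from 46.8 through 61.1 to 9.37 FPKM, and Ttn from 428 to 46.8 FPKM between the embryonic libraries. Ttn and the joined locus of Myh6 and Myh7 are listed at 0 in the adult, where an exact 0 can be a failed estimate. Beside these marker counts from E10.5 to the adult, 14.8% of the background loci rose and 27.3% fell. The part of these cell types in the changes of the 10 genes was not tested.

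The 3 prolyl hydroxylases differed in their course. Egln1 encodes PHD2, the main oxygen-dependent brake on HIF-1α, and its locus (chromosome 8, 124908587 to 124949254, minus strand, 1 deposited transcript of 5 exons) had 30.4 FPKM at E10.5, 32.6 FPKM at E13.5 and 99.9 FPKM in the adult. The embryonic libraries were nearly alike and the adult was the high one, 3.29 times E10.5 (change 1.68). The small step between the embryonic libraries, 0.10, took the other sign under each of the other scalings and against loci of similar length.

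Egln3 encodes PHD3, itself a gene known to be induced by HIF, and it was the lowest of the 3 hydroxylases in both embryonic libraries. Its locus (chromosome 12, 54178981 to 54203874, minus strand) had 3.73 FPKM at E10.5, 2.33 FPKM at E13.5 and 14.8 FPKM in the adult. The adult library was again the high one, at 3.96 times E10.5 (change 1.74) and 6.34 times E13.5 (change 2.24). The single core in its window, printed above, is the most distant from its start among the members' matches.

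Egln2, which encodes PHD1, went the other way. Its locus (chromosome 7, 27158592 to 27166802, minus strand, 2 deposited transcripts) had 22.7 FPKM at E10.5, 38.7 FPKM at E13.5 and 13.9 FPKM in the adult. The E13.5 library was the highest and the adult the lowest, and the fall of 1.41 from E13.5 to the adult passed the limit while the value of -0.67 between E10.5 and the adult did not. Against the background median the former was -0.91 and the latter -0.27.

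Together the 3 hydroxylase genes had 56.8 FPKM at E10.5, 73.7 FPKM at E13.5 and 128.6 FPKM in the adult. Egln1 supplied 53.5%, 44.3% and 77.7% of these sums, Egln2 supplied 39.9%, 52.5% and 10.8%, and Egln3 supplied 6.57%, 3.16% and 11.5%. Egln2 was therefore the first of the 3 at E13.5 and the last in the adult, where Egln3 was close to it. The Egln2 transcript is shorter (2.11 kb) than that of Egln1 (3.52 kb). Between the embryonic libraries the median changes of background loci in their length classes were 0.30 and 0.15, so the order at E13.5 is uncertain.

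Vhl encodes the subunit of the ubiquitin ligase that recognises hydroxylated HIF alpha. Its locus (chromosome 6, 113624021 to 113631633, plus strand, 1 deposited transcript of 3 exons) had 10.3 FPKM at E10.5, 20.2 FPKM at E13.5 and 5.48 FPKM in the adult. As for Egln2, E13.5 was the highest and the adult the lowest, with a fall of 1.71 from E13.5 and a change of -0.80 from E10.5. RefSeq lists a Vhl pseudogene, and fragments of near-identical copies could be split between loci in a way not stated, so this level is uncertain. In its promoter window no core was found.

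**Figure D3:**
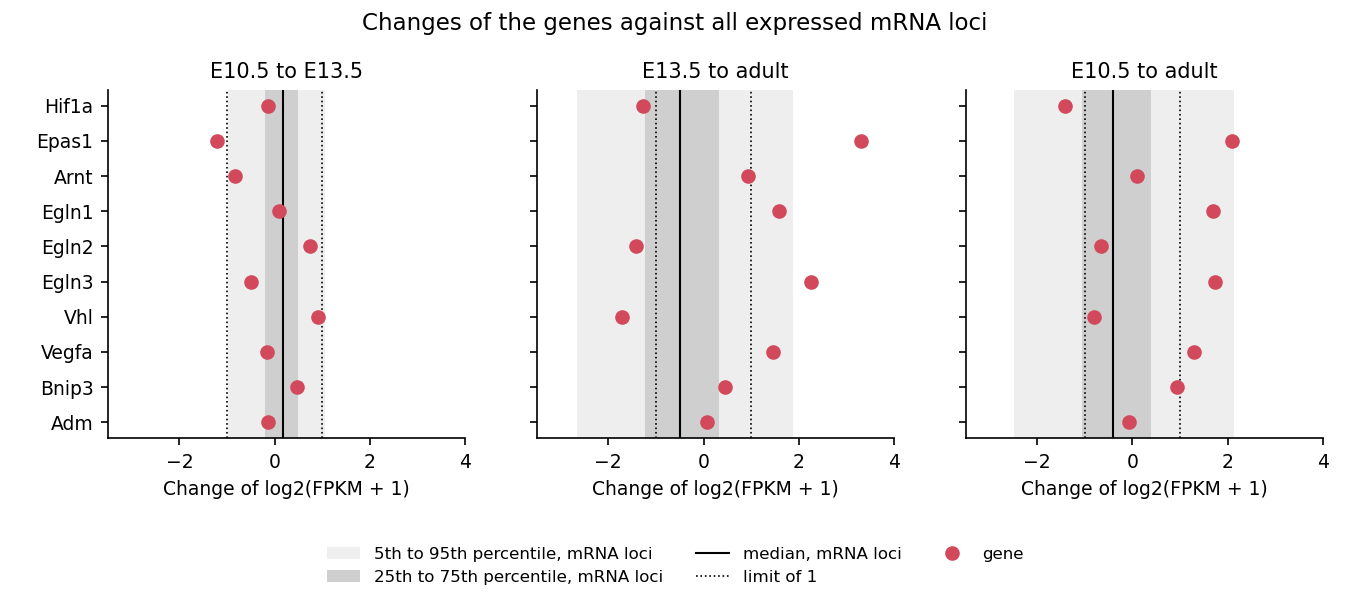
Change of log2(FPKM + 1) of each gene (points) in the 3 comparisons, with the 25th to 75th and 5th to 95th percentiles of 12569 mRNA loci (dark and light bands), their median (line) and the limit of 1 (dotted). Epas1 and Egln3 lie outside the light band from E13.5 to the adult, and Epas1 lies outside it on the low side from E10.5 to E13.5.

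Turning to the targets, Vegfa encodes the main growth factor for blood vessels and is a classical HIF target. Its locus (chromosome 17, 46016957 to 46032377, minus strand, 7 deposited transcripts from 3 start sites, not separated in the values) had 30.1 FPKM at E10.5, 26.8 FPKM at E13.5 and 75.3 FPKM in the adult. Both embryonic libraries were low and close to each other and the adult was high, at 2.51 times E10.5 (change 1.30) and 2.82 times E13.5 (change 1.46). Vegfa had no core in its upstream window, and bases farther upstream were not searched. A later RefSeq start inside the locus has 2 cores, 218 and 211 bases before it. These lie within an exon of Vegfa transcripts that start earlier.

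Bnip3, a mitochondrial outer membrane protein that recruits the machinery of mitophagy, was among the first 2 of the 10 genes in every library. Its locus (chromosome 7, 138887411 to 138909509, minus strand, 3 deposited transcripts) had 54.8 FPKM at E10.5, 76.5 FPKM at E13.5 and 105 FPKM in the adult. The levels stand in the order of the stages, but with changes of 0.47, 0.46 and, over the whole interval, 0.93, none passed the limit as deposited. The value over the whole interval became 1.34 with median-of-ratios scaling, 1.35 with upper quartile scaling and 1.33 against loci of similar length. It stayed under the limit, at 0.98, when rescaled without globin, mitochondrial and short structured RNA loci, and at 0.94 with a pseudocount of 0.1. Beside its paralog Bnip3l, with 42.2, 49.2 and 20.7 FPKM, Bnip3 held 56.5%, 60.9% and 83.6% of their sum.

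Adm encodes adrenomedullin, a vasodilator peptide. Its locus (chromosome 7, 110627669 to 110629819, plus strand) had 3.96 FPKM at E10.5, 3.52 FPKM at E13.5 and 3.73 FPKM in the adult. These were the most even levels among the 10 genes, with a ratio of highest to lowest of 1.13. Between E10.5 and the adult the change was -0.07 on the deposited scale but 0.26 after median-of-ratios scaling, so it has no fixed direction. About 75, 130 and 71 fragments stand behind these values, the fewest of any member, whereas Hif1a rests on about 6105 to 28672.

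In order of level, the E10.5 library ran Hif1a, Bnip3, Egln1, Vegfa, Egln2, Arnt, Vhl, Epas1, Adm and Egln3. Egln1 and Vegfa (ratio 1.01) and Adm and Egln3 (ratio 1.06) were close neighbours there. At E13.5 the order was Hif1a, Bnip3, Egln2, Egln1, Vegfa, Vhl, Arnt, Adm, Egln3 and Epas1, the last pair with a ratio of 1.01. In the adult library the order was Bnip3, Egln1, Vegfa, Hif1a, Epas1, Egln3, Arnt, Egln2, Vhl and Adm, with close neighbours at the top (Bnip3 over Egln1, ratio 1.05) and in the middle (Egln3 over Arnt 1.05, Arnt over Egln2 1.01). Hif1a thus moved from the first to the fourth place and Epas1 from the eighth to the fifth.

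Transcript length was linked to each change that involves the E13.5 library. Between the embryonic libraries the median change of the background loci went from 0.57 in loci up to 1 kb to -0.46 in those over 8 kb. In the later step, out of E13.5, the trend was reversed, with medians of -0.97 and 0.07 in the same classes. From E10.5 to the adult the median lay between -0.34 and -0.44 in all 8 length classes. Between the embryonic libraries Hif1a, with the longest transcript of the 10 (7.02 kb), had a change of -0.14 as deposited and 0.07 relative to its length class. For Epas1 (5.35 kb) the fall remained at -1.15 and for Arnt (4.37 kb) the value was -0.86, while Vhl (2.73 kb) went from 0.91 to 0.62 and Adm (1.38 kb) from -0.13 to -0.56. In the later step, the length class moved Epas1 from 3.30 to 3.59, Egln3 from 2.24 to 2.89, Egln1 from 1.59 to 2.15 and Vegfa from 1.46 to 2.02. Hif1a went from -1.27 to -1.12, Vhl from -1.71 to -1.06 and Egln2 from -1.41 to -0.77, under the limit. Arnt (1.31) and Bnip3 (1.25) came past it. Whether RNA quality or library preparation differed between these libraries was not tested.

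**Figure D4:**
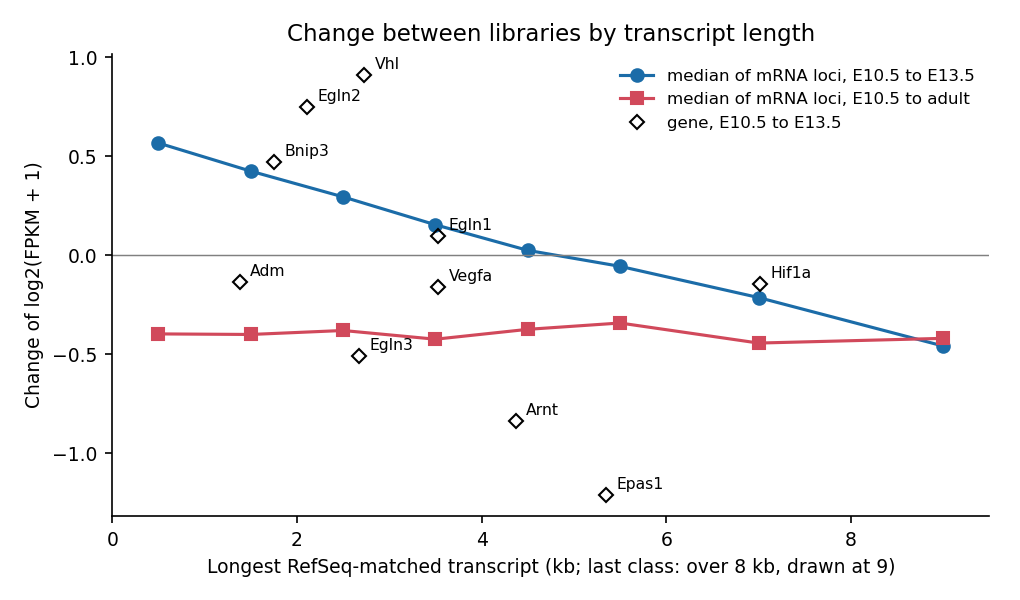
Change of log2(FPKM + 1) against the length of the longest RefSeq-matched transcript (kb). Lines give the median of mRNA loci in 8 length classes for E10.5 to E13.5 (circles, from 0.57 to -0.46) and E10.5 to adult (squares, between -0.34 and -0.44), and diamonds give the 10 genes from E10.5 to E13.5, where Epas1 lies farthest under the line.

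The wider pathway was described with lists of genes drawn from textbook knowledge of the pathway. The lists were chosen with earlier results of these data known. Pgf and Bnip3l stand in 2 lists each, and Kdr is both a VEGF gene and an endothelial marker. Their values in 2 lists are not separate observations. Of 24 HIF subunits and regulators, which include 7 of the 10 genes, 3 rose from E10.5 to the adult, all 3 of them members (Epas1, Egln1 and Egln3), and 8 fell. At this limit of 1 the shares, 12.5% and 33.3%, are near the 14.8% and 27.3% of the background loci. Besides Hif1a and Hif3a, those that fell were P4htm, Cited2, Cited4, Siah2, Hsp90aa1 and Hsp90ab1. Hsp90aa1 and Hsp90ab1 encode the HSP90 chaperones that stabilise HIF-1α. Hsp90aa1 had 56.4, 57.0 and 12.8 FPKM (change -2.06), and Hsp90ab1 was the highest of the list in every library with 874, 402 and 272 FPKM. P4htm, a transmembrane prolyl hydroxylase, shares its locus with Wdr6, and that locus had 39.9, 47.5 and 6.18 FPKM. The asparagine hydroxylase gene Hif1an had 14.8, 7.57 and 11.8 FPKM. From E10.5 to the adult it did not pass the limit, nor did the ligase components Cul2, Rbx1, Tceb1 and Tceb2. From E13.5 to the adult Rbx1 (-1.22), Tceb1 (-1.29) and Tceb2 (-1.38) fell past it. In that step 3 of the 24 genes of the list rose and 14 fell, beside 13% and 32.1% of the background loci. The median change of the list from E10.5 to the adult was -0.81, beside -0.40 for the background loci. At a limit of 1.5-fold over that interval, 3 of the 24 rose and 17 fell, beside 21.1% and 42.6% of the background loci.

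Of 10 VEGF ligands and receptors, Vegfa was the 1 that rose from E10.5 to the adult and none fell, beside 14.8% and 27.3% of the background loci, with a median change of 0.45. Vegfb, a ligand of the receptor FLT1, had 40.7, 39.6 and 60.05 FPKM, so that Vegfa over Vegfb went from 0.738 at E10.5 and 0.675 at E13.5 to 1.25 in the adult. Kdr, the main signalling receptor for VEGF-A, had 48.1, 20.3 and 61.9 FPKM, and Flt1 had 18.7, 8.62 and 32.7 FPKM. Both receptors shared the low value at E13.5 seen in Epas1, with changes of -1.21 and -1.03 from E10.5. In this step the median of mRNA loci of similar length was -0.06 for Kdr and -0.21 for Flt1. The coreceptor Nrp1 was the highest of the list at E10.5 with 61.1 FPKM, Vegfb at E13.5 and Vegfa in the adult.

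Of 8 genes of the adrenomedullin system, 1 rose (Ramp3) and 2 fell (Ramp1 and Ramp2) from E10.5 to the adult, which is near the 14.8% and 27.3% of the background loci. Ramp2, which turns the receptor protein CALCRL into an adrenomedullin receptor, had 103 FPKM at E10.5, 148 FPKM at E13.5 and 39.2 FPKM in the adult, while Ramp3, which does the same, had 0.120, 1.23 and 3.08. The ratio of Ramp2 to Ramp3 was 120.4 at E13.5 and 12.7 in the adult. Ramp1 had 4.54, 13.2 and 1.27 FPKM. Calcrl had 32.6, 35.0 and 22.9 FPKM and did not pass the limit. Pam, the enzyme that amidates the peptide, was the highest of the list in every library, at 240.3, 286 and 179 FPKM.

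The mitophagy genes formed the list with the largest share of rises among the 6 lists. Of 15 genes, 7 rose (46.7%, background 14.8%) and 1 fell, Fkbp8 (6.67%, background 27.3%), with a median change of 0.93. Bnip3 is in this list but not among the 7, since its change of 0.93 stayed under the limit. Pink1, the kinase that marks damaged mitochondria, had 25.4 FPKM at E10.5, 52.7 FPKM at E13.5 and 269 FPKM in the adult (change 3.35). Map1lc3a, an autophagosome coat protein, went from 20.2 through 51.0 to 129 FPKM, and the cargo receptor Optn from 3.98 through 6.36 to 31.9. Gabarap, another coat protein in a joined locus, was the highest of the list in both embryonic libraries with 193 and 361 FPKM and had 245 in the adult.

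Of 18 glycolytic HIF targets, in contrast, 12 fell (66.7%, background 27.3%) and 1 rose, with a median change of -1.34. Slc2a1, the glucose transporter GLUT1, had 239 FPKM at E10.5, 142 FPKM at E13.5 and 8.41 FPKM in the adult (change -4.67). The lactate exporter Slc16a3 had 67.4, 65.8 and 2.51 FPKM (change -4.29), and the neuronal-type glucose transporter Slc2a3 had 12.3, 8.34 and 0.965. Aldoc, an aldolase, had 8.18, 8.79 and 0.259 FPKM. Hk2, the insulin-responsive hexokinase, was the gene that rose, with 31.6, 15.9 and 64.7 FPKM and a change of 1.01. Aldoa, the muscle aldolase, was the highest of the list in every library with 1075, 1293 and 1296 FPKM. Eno1 (108, 103 and 11.4 FPKM), Pgk1 (29.8, 35.8 and 8.13) and Pgam1 (14.5, 15.5 and 1.00) also fell, but they have near-identical copies in the genome and their values are uncertain.

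Of 30 other HIF targets, 28 of which reached 1 FPKM, 8 rose (26.7%, background 14.8%) and 2 fell (6.67%, background 27.3%), with a median change of -0.06. Among the genes that rose were Ndrg1, P4ha2, Lox, Stc2, Angptl4, Bhlhe40 and Rora. Ndrg1, a stress-induced gene, had 1.66, 3.96 and 13.9 FPKM. Lox, which crosslinks collagen, was highest at E13.5 with 14.6 FPKM between 1.12 at E10.5 and 4.46 in the adult. Rora, a nuclear receptor, had 1.81, 0.871 and 6.93 FPKM. The highest of this list in every library was Fam162a, a mitochondrial protein, at 117, 223 and 80.2 FPKM. Epo, the erythropoietin gene, is listed at 0 in all 3 libraries. With median-of-ratios scaling the splits of the lists from E10.5 to the adult shifted to 3 up and 6 down for the HIF subunits and regulators, 3 and 0 for the VEGF list, 2 and 1 for the adrenomedullin list, 8 and 0 for mitophagy, 2 and 9 for the glycolytic targets and 9 and 1 for the other targets, beside 20% of the background loci up and 18.4% down.

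**Figure D5:**
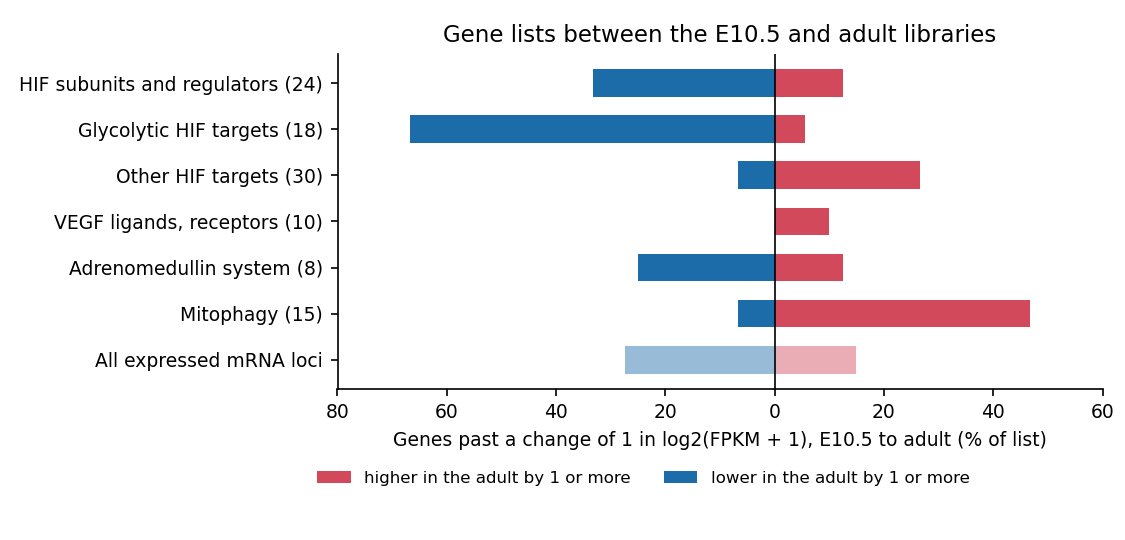
Share of each gene list (%, number of genes in brackets) with a change of 1 or more in log2(FPKM + 1) from E10.5 to the adult, higher to the right and lower to the left, with all expressed mRNA loci in the bottom row. Glycolytic targets reach 66.7% on the lower side and mitophagy genes 46.7% on the higher side, against 27.3% and 14.8% of mRNA loci.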

How the data were processed

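Ventricle RNA of 3 stages was sequenced with a stranded total RNA kit, paired-end, with 1 library a stage. Per the study's methods and the submitters' processing notes, the authors mapped reads to mm10 with TopHat2 and Bowtie and assembled transcripts with Cufflinks, both guided by a UCSC annotation and unguided. Further versions, options and the handling of multiply mapped fragments are not given in the sources used here. The authors deposited FPKM values, that is fragment numbers per length of exon and per library size, for each merged locus, and the transcript annotation, whose coordinates are given on GRCm38 (mm10).

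Loci were matched to genes by name and strand. Changes are differences of log2(FPKM + 1), counted at or past 1 beside all mRNA loci with 1 FPKM or more in at least 1 library. No test was run. The FPKM sums were 601115 at E10.5, 808971 at E13.5, 443471 for the adult, and the lowest steps of the values correspond to about 13.8, 26.7 and 13.8 fragments per kb at 1 FPKM, which is approximate, so precision near 1 FPKM is poor. The members and gene lists were chosen with earlier results of these data known. Named genes were the 10 members, list genes past 2 in any comparison and the highest of each list in each library, except 1 gene of the lists that is not reported here. Further genes named from the lists, such as the receptors beside Vegfa, the ligase components, the hydroxylase Hif1an, Bnip3l, Calcrl, single markers and the complete sets of genes past 1, were named after their values were seen. The 3 mRNA loci nearest in pattern, among those with 10 FPKM or more in a library, were named for members past 1 from E10.5 to the adult. Promoter windows (250 bases before and 50 after the start) are from RefSeq. Alternatives were other scalings, limits, pseudocounts, filters and, added after seeing the data, transcript length classes. Planned protein sequence comparisons were not run. Scripts were tested on simulated data. Calculations used Python 3.11.15 with numpy 2.4.6 and pandas 2.3.3.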

Additional observations from a re-analysis of the deposited data

How the results depend on the processing

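No paired analysis was possible because no stage has more than 1 library. Of 150 comparisons of a count or median with an alternative, 101 differed by less than 1.5 times for counts, or by less than 1.5-fold for median changes, and 49 moved more. Among 150 recomputed changes of single genes, 8 took another sign (Adm between E10.5 and the adult, Egln1 and Hif1a from E10.5 to E13.5), all of them in changes under the limit, and none of 65 recomputations of changes past the limit reversed while 8 fell under it.

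A limit of 1.5-fold gave 2 members higher and 2 lower from E10.5 to E13.5 and 3 lower over the whole interval. At that limit, from E10.5 to the adult, the HIF regulator list had 17 lower, the VEGF list 4 higher and 1 lower, the adrenomedullin list 2 higher, the glycolytic list 2 higher, the mitophagy list 3 lower and the other targets 7 lower, beside 21.1% of the background loci higher and 42.6% lower. A limit of 2 left 1 member higher and 0 lower between E10.5 and the adult, 2 higher and 0 lower between E13.5 and the adult, and 0 lower between the embryonic stages. It left 1 higher and 3 lower of the HIF regulators, 0 higher of the VEGF list, 0 and 0 of the adrenomedullin list, 0 higher and 6 lower of the glycolytic list, 3 higher and 0 lower of the mitophagy list, and 2 higher and 0 lower of the other targets, beside 5.59% and 8.1% of the background loci.

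Median-of-ratios scaling gave 1 member lower from E13.5 to the adult (background 18.9%). Upper quartile scaling also gave 1, with 0 lower over the whole interval because Hif1a then stood at -0.99. Both scalings gave 3 VEGF genes higher, 2 adrenomedullin genes higher and 1 lower, 2 glycolytic genes higher, 0 mitophagy genes lower and 1 other target lower, and upper quartile scaling gave 5 HIF regulators lower. A pseudocount of 0.1 gave 2 VEGF genes higher and 1 lower, 2 glycolytic genes higher, 2 mitophagy genes lower and 7 other targets lower. Rescaling without globin, mitochondrial and short structured RNA loci gave 2 members lower from E10.5 to E13.5. Changes relative to the length class, added after seeing the data, gave 0 members lower from E10.5 to the adult (background 16.7%). Under median-of-ratios scaling 20% of the background loci rose and 18.4% fell from E10.5 to the adult. Background shares were not computed under upper quartile scaling, a pseudocount of 0.1 or the rescaling. Counts under those settings therefore cannot be set against the background.

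With 1 library a stage, no alternative leaves out a replicate, and stage cannot be told apart from library, animal or preparation. Depth limits Adm, Egln3 and the genes near 1 FPKM most.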

Other observations

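Short unspliced transcripts were assembled on the other strand at 3 of the 10 genes. Inside Hif1a lay 2 single-exon loci, at chromosome 12, 73946366 to 73947999 and 73948437 to 73949766 on the minus strand. The first had 0.785 FPKM at E10.5, 0.540 FPKM at E13.5 and 0.951 FPKM in the adult, and the second had 1.12, 0.914 and 0.632, so both stayed between 0.353% and 1.51% of the Hif1a level. The library kit marks strand, but whether the counting used it is not given in the sources used here, and these low values are imprecise.

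Egln1 had 2 single-exon loci on the opposite strand, whose 5′ ends lay 396 and 2854 bp from its start (chromosome 8, 124949650 to 124951912 and 124952108 to 124953150). The nearer had 0.719, 0.919 and 1.73 FPKM and the farther 0.547, 0.456 and 1.22, so that both were highest in the adult library, as was Egln1. At Vegfa a locus 170 bp away (chromosome 17, 46032547 to 46033458) had 0.221, 0.111 and 0.335 FPKM, about 3 or 4 fragments in each library. None of these loci has a spliced transcript.

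Other mRNA loci followed the same 3-point patterns, which is easily met with 3 libraries. Likeness was the distance between patterns of log2(FPKM + 1) centred over the libraries, among 7603 mRNA loci with 10 FPKM or more in a library. The patterns were not scaled for the size of the change, so few neighbours of a gene are not separate from a wide range of its levels. Epas1 had the fewest loci within 0.25 among the 5 genes compared, 3, and its nearest were the Zbtb20 locus (6.99 FPKM at E10.5, 1.98 FPKM at E13.5 and 31.0 FPKM in the adult, distance 0.15), Fyco1 (0.20) and Nr1d1 (0.22). Egln3 had 29 loci within that distance, led by Akap6 (13.4, 8.64 and 46.1 FPKM), Csf1 and Sgcb. Egln1 had 78, led by Ppp1r12b, Ubxn2a and Osgepl1, and Vegfa had 85, led by Ccdc90a, Fnip1 and Bhlhe40, the last also in the list of other HIF targets. Hif1a had 337, led by Gm826, Rnf138 and Mrps11.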
